A study of Mus musculus with 36 samples.

Results

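The transcripts described here encode the subunits of the proteasome and the proteins that assemble or activate it. They were chosen by name, as every probe set of the value table with a single gene symbol made of Psma, Psmb, Psmc, Psmd, Psme or Psmf and a number, leaving out Psmb8 and Psmb9. This gave 51 of 12488 probe sets and 40 of 8252 genes. Of these, 38 genes encode subunits, activators or assembly chaperones, while Psmc3ip and Psme3ip1 match the name pattern but encode partner proteins and were counted apart. Of the 38 genes, 36 had a mean signal high enough to be tested, and Psmc4 and Psmd2 did not. Of the partner proteins, Psme3ip1 was tested and Psmc3ip was not. Psme2 was not named, since its 2 probe sets carry more than 1 symbol.

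RNA came from the muscles of mdx and mdx5cv mice, 2 strains that lack dystrophin through different mutations of the Dmd gene, and of C57BL10 mice, which have it. All were males aged 8 weeks, and each sample pooled RNA of 5 mice. The muscles were diaphragm, EDL (extensor digitorum longus), gastroc (gastrocnemius), quadriceps, soleus and TA (tibialis anterior), giving 18 groups with 2 samples apiece, each sample on 1 Affymetrix MG_U74Av2 array. Whether samples 1 and 2 of a group are separate pools is not stated in the labels, so the p-values measure only the spread between these samples. Whole muscle holds fibres together with infiltrating and connective tissue cells. In such bulk tissue, fewer cells of a type and less RNA per cell cannot be told apart.

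The proteasome is the main protease of the cytosol and nucleus and degrades proteins tagged with ubiquitin. Its 20S core is a barrel of outer alpha rings, encoded by Psma genes, and inner beta rings, encoded by Psmb genes, which hold the cutting sites. The 19S cap has a base of ATPases (Psmc genes) and scaffold or ubiquitin-binding subunits (Psmd1, Psmd2 and Psmd4), and a lid of other Psmd subunits. In muscle the ubiquitin-proteasome system removes myofibrillar proteins, and its genes are known to be induced during atrophy.

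Promoters are shown for 3 subunits on which the results turn, namely Psme4, which was called lower in the diaphragm of mdx and C57BL10 mice and, in part of the settings tried, in fast limb muscles of the mutant strains, Psmc1, an ATPase called lower in the C57BL10 diaphragm, and Psme1, an activator with a positive difference there. They are RefSeq sequences on GRCm38.p6, 250 bases before to 50 after the gene start, written 5′ to 3′ on the strand of the gene, with motif matches in capitals.
Psme4: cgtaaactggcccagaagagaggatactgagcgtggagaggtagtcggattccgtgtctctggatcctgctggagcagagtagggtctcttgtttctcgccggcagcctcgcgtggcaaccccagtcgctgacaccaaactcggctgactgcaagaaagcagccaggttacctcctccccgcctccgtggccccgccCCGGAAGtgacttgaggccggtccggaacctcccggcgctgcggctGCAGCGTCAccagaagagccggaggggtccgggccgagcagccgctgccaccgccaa
Psmc1: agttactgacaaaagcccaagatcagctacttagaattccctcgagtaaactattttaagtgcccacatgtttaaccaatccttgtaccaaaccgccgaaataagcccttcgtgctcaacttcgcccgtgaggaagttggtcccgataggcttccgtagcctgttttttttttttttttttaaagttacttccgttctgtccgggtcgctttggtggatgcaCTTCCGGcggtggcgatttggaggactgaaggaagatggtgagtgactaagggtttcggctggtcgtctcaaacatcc
Psme1: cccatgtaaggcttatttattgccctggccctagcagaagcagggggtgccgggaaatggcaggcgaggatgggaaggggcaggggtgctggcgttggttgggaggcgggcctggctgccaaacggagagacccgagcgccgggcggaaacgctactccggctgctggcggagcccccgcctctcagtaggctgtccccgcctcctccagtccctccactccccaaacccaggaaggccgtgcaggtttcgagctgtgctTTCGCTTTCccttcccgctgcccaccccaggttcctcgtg
The first lies at chr11:30771525-30771824, the next at chr12:100109952-100110251 and the last at chr14:55578244-55578543, all on the plus strand. Motifs were searched on both strands. Psme4 holds the ETS core CCGGAAG, 53 bases before the start, and on the other strand the antioxidant response element core TGACNNNGC, 7 bases before it. Psmc1 holds the ETS core on the other strand, 28 bases before the start. Psme1 holds the interferon-stimulated response element core GAAANNGAA on the other strand, 11 bases after the start. Of the 38 subunit genes, 32 had an entry, with 34 promoters. The ETS core was found in 13 of the 34 (38.2%), against 8.86% of 32851 promoters. The antioxidant response element core was found in 17.6% of the subunit promoters, against 12.4% of all, and the interferon-stimulated response element core in 17.6%, against 8.56% of all. A match is a description of these letters and not a bound site.

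Of the 36 columns, mdx gastroc sample 2 and mdx5cv gastroc sample 1 equalled quadriceps columns of the same strain in all 12488 probe sets and were left out, so 34 arrays were used and mdx and mdx5cv gastroc have 1 each. Median signals lay between 458 and 1026. C57BL10 TA sample 2 (median Spearman correlation with the other arrays 0.621) and mdx5cv quadriceps sample 2 (0.769) stood apart from the rest (0.835 to 0.934). For mdx EDL sample 1 the title and source name mdx and the description mdx5cv, and it was kept as mdx. Actin signal at the 3′ end over that at the 5′ end, a sign of RNA quality, was 1.096 ± 0.343 in mdx (SD, n = 11) and 1.034 ± 0.126 in mdx5cv (n = 11), against 0.768 ± 0.114 in C57BL10 (n = 12). Of the 20 mutant arrays with a scanning day, 11 fell in a period that also holds 4 C57BL10 arrays and 9 in a period with none, so scanning period and strain can only partly be told apart.

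Proteasome transcripts varied between muscles and strains nearly as much as tested genes in general. Their lowest levels were found in the diaphragm and on the 2 arrays that stood apart. Over the 18 group means the SD of the log2 signal had a median of 0.36 over the 36 subunit genes, against 0.41 over the 5693 tested genes. The spread between arrays of 1 group was of the same size, with a median SD of 0.39 for the subunits and 0.42 for all genes. Psma5, an alpha ring subunit, varied least (SD 0.18) and Psme4, which encodes the activator PA200, varied most (0.56). The C57BL10 diaphragm was the lowest of the 18 groups for 11 genes, the C57BL10 TA for another 11 and the mdx diaphragm for 5. The C57BL10 quadriceps was the highest group for 10 genes.

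To show the arrays side by side, each subunit was set against its own mean over the 34 arrays and the median of the 36 deviations was taken. In the diaphragm this median was -0.30 and -0.25 on the mdx arrays, -0.30 and -0.09 on the mdx5cv arrays, and -0.48 and -0.38 on the C57BL10 arrays. The limb muscles of the mutant strains lay between -0.18 and 0.29, save mdx5cv quadriceps sample 2 at -0.63. The limb muscles of C57BL10 lay between 0.05 and 0.38, save TA sample 2 at -0.97. On C57BL10 TA sample 2, 32 of the 36 subunits were below their own mean, and on mdx5cv quadriceps sample 2, 34 of 36. The median over all tested probe sets was 0.04 and 0.02 on these 2 arrays.

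**Figure D1:**
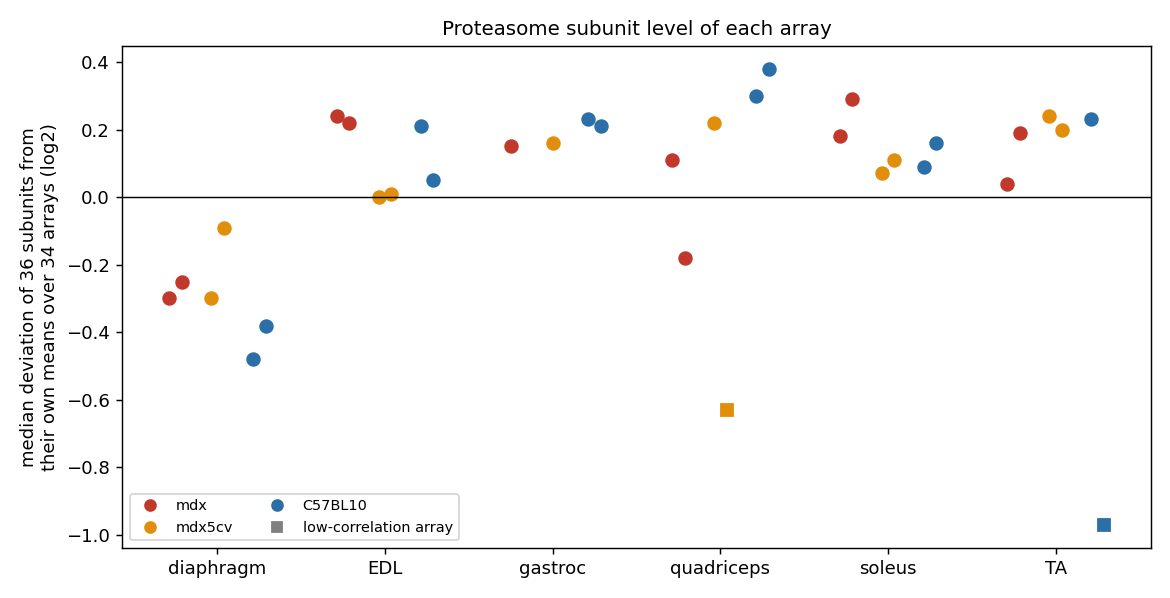
Median log2 deviation of the 36 proteasome genes from their own means over 34 arrays (vertical axis), by muscle and strain, with 1 point per array and squares for the 2 low-correlation arrays. The 6 diaphragm arrays lie between -0.48 and -0.09, and the squares at -0.63 and -0.97 lie below every other array.

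The first comparison asked whether muscle without dystrophin carries more or less proteasome RNA, averaged over the 6 muscles. In mdx muscle 0 of 36 subunit genes passed the adjusted p threshold of 0.05 in limma, and 5 had an unadjusted p under it. In mdx5cv muscle 0 of 36 passed, and 2 had an unadjusted p under it. Among all 5693 tested genes, 10.6% were higher and 5.48% lower in mdx than in C57BL10, and 11.1% were higher and 4.5% lower in mdx5cv than in C57BL10. The median difference of the subunits was 0.04 on the log2 scale in mdx and 0.01 in mdx5cv, beside -0.04 and 0.02 over all tested genes. Without C57BL10 TA sample 1, 4 subunits passed in mdx, where 13.6% of all genes were higher and 7.43% lower. Without C57BL10 TA sample 2, 2 passed in mdx5cv, where 12.3% were higher and 7.32% lower. The 95% interval stayed within 1 log2 unit of 0, a change of 2 fold, for all 36 genes in mdx and for 34 of 36 in mdx5cv, so changes below 2 fold were not excluded by the precision of the arrays.

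The medians by role lay between -0.14 and 0.18 in mdx and between -0.39 and 0.06 in mdx5cv. The 7 alpha ring genes had a median difference of 0.06 in mdx and 0.03 in mdx5cv, between Psma1 (-0.32) and Psma5 (0.13) in mdx and between Psma7 (-0.24) and Psma3 (0.18) in mdx5cv. The 7 beta ring genes had medians of 0.11 and 0.06. Among them Psmb1, which has no cutting site of its own, differed by 0.37 ± 0.16 (SE) in mdx, with an adjusted p of 0.13 in limma. The cutting subunits Psmb5 (chymotrypsin-like), Psmb6 (caspase-like) and Psmb7 (trypsin-like) differed by 0.35, 0.02 and 0.11 in mdx and by 0.19, 0.18 and -0.13 in mdx5cv. The non-cutting subunits Psmb3 and Psmb4 differed by -0.24 and 0.14 in mdx and by -0.16 and 0.06 in mdx5cv. Psma2, Psma4 and Psma6, alpha ring subunits, differed by between -0.21 and 0.07 in the 2 strains.

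In the cap, the 5 tested ATPases had medians of 0.02 in mdx and 0.04 in mdx5cv, from Psmc2 (-0.34) to Psmc6 (0.48) in mdx and from Psmc2 (-0.11) to Psmc6 (0.16) in mdx5cv. Psmc1, Psmc3 and Psmc5 differed by between -0.09 and 0.06. The base subunits Psmd1, a scaffold, and Psmd4, a ubiquitin receptor, differed by -0.17 and -0.10 in mdx and by -0.01 and -0.28 in mdx5cv. The 8 lid genes had medians of 0.12 and -0.06, from Psmd13 (-0.21) to Psmd14 (0.25), the deubiquitinating subunit, in mdx and from Psmd3 (-0.22) to Psmd12 (0.25) in mdx5cv. The other lid genes, Psmd6, Psmd7, Psmd8 and Psmd11, lay between -0.17 and 0.24. The assembly chaperones Psmd5, Psmd9 and Psmd10 differed by 0.23, -0.13 and 0.18 in mdx and by 0.02, 0.02 and 0.51 in mdx5cv. The activators Psme1 (PA28 alpha), Psme3 (PA28 gamma) and Psme4 differed by -0.09, 0.07 and -0.17 in mdx and by -0.19, -0.39 and -0.42 in mdx5cv. Psme3ip1, which encodes a partner of PA28 gamma, differed by 0.16 and 0.06.

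**Figure D2:**
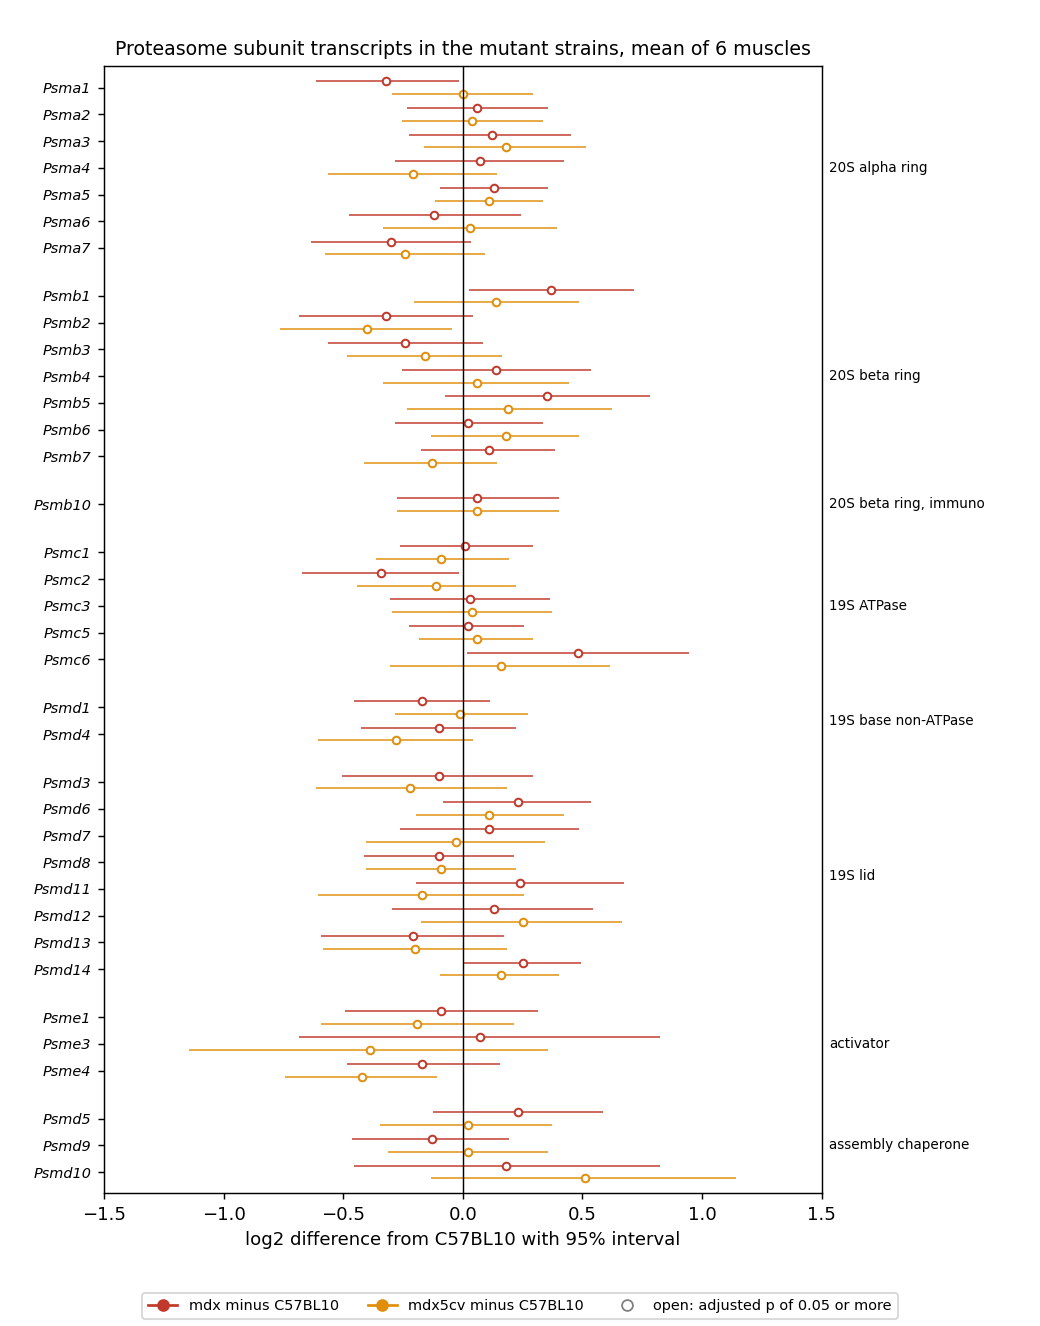
Log2 difference from C57BL10, averaged over 6 muscles, for 36 proteasome genes ordered by role, with the point for mdx above that for mdx5cv and bars for the 95% interval from limma. All points are open, since no gene passed the adjusted p threshold of 0.05, and the estimates lie between -0.42 and 0.51.

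Psmb2, a beta ring subunit without a cutting site, had the largest mean difference of the 2 strains, at -0.32 ± 0.17 in mdx and -0.40 ± 0.17 in mdx5cv (SE), with an adjusted p of 0.13 in limma for mdx5cv. Its signal in mdx mice was 2951 and 4136 in diaphragm, 6270 and 5154 in EDL, 4507 in gastroc, 4294 and 1646 in quadriceps, 5649 and 5700 in soleus and 3948 and 7111 in TA. In mdx5cv mice it was 2654 and 4087 in diaphragm, 5674 and 6079 in EDL, 3158 in gastroc, 6395 and 3441 in quadriceps, 5263 and 3713 in soleus and 3529 and 4526 in TA. In C57BL10 mice it was 3824 and 3392 in diaphragm, 6905 and 4704 in EDL, 5568 and 5929 in gastroc, 9353 and 6628 in quadriceps, 7902 and 4108 in soleus and 4675 and 5682 in TA. The ranges overlapped in most muscles, and only in gastroc and quadriceps did the mutant arrays all lie below those of C57BL10.

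Psmd10, an assembly chaperone also known as gankyrin, differed by 0.18 ± 0.31 in mdx and 0.51 ± 0.31 in mdx5cv, within the spread between arrays. Its signal was low and read 418 and 596 in diaphragm, 328 and 708 in EDL, 444 in gastroc, 321 and 1124 in quadriceps, 416 and 441 in soleus and 85 and 668 in TA of mdx mice. Mice of the mdx5cv strain had 381 and 835 in diaphragm, 273 and 692 in EDL, 737 in gastroc, 561 and 389 in quadriceps, 450 and 873 in soleus and 733 and 422 in TA. C57BL10 mice had 275 and 299 in diaphragm, 386 and 281 in EDL, 492 and 388 in gastroc, 323 and 502 in quadriceps, 252 and 748 in soleus and 555 and 447 in TA. Arrays of 1 group differed by as much as 85 against 668 in mdx TA, and the value of 85 was set to the floor of 118 before the fit.

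Psmc6, an ATPase of the base, differed by 0.48 ± 0.22 in mdx (adjusted p of 0.15 in limma) and by 0.16 ± 0.22 in mdx5cv (0.73). Its signal in mdx mice was 12654 and 12878 in diaphragm, 21949 and 21135 in EDL, 17658 in gastroc, 18866 and 34660 in quadriceps, 19227 and 18794 in soleus and 14247 and 28097 in TA. In mdx5cv mice it was 12614 and 14109 in diaphragm, 15208 and 12392 in EDL, 19975 in gastroc, 19384 and 8484 in quadriceps, 13223 and 16397 in soleus and 18762 and 16841 in TA. In C57BL10 mice it was 11469 and 13621 in diaphragm, 17728 and 20668 in EDL, 17780 and 18121 in gastroc, 20288 and 13528 in quadriceps, 12483 and 15476 in soleus and 15860 and 2639 in TA. The 2639 of C57BL10 TA sample 2 was far below every other array, and the 34660 of mdx quadriceps sample 2 was the highest.

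Psmb5, which carries the chymotrypsin-like site, differed by 0.35 ± 0.21 in mdx (adjusted p of 0.26 in limma) and by 0.19 ± 0.21 in mdx5cv (0.62). In mdx mice its signal was 6876 and 4924 in diaphragm, 14258 and 11816 in EDL, 14332 in gastroc, 14193 and 9086 in quadriceps, 14119 and 8119 in soleus and 13675 and 16267 in TA. The mdx5cv mice had 7013 and 7440 in diaphragm, 13221 and 8833 in EDL, 12272 in gastroc, 15156 and 4960 in quadriceps, 11177 and 9337 in soleus and 10128 and 13985 in TA. The C57BL10 mice had 6849 and 7233 in diaphragm, 11913 and 11145 in EDL, 9264 and 11140 in gastroc, 11356 and 12497 in quadriceps, 8712 and 7056 in soleus and 12023 and 2856 in TA. The ranges of the 3 strains overlapped, and the 2856 of C57BL10 TA sample 2 was again the lowest value. These values are of the brightest probe set. A dimmer tested probe set of Psmb5 passed in no comparison. In gastroc and quadriceps its mdx signals (842 to 991) lay below those of C57BL10 (1013 to 1274). In soleus they lay above (1039 and 1248, against 868 and 960), so the sign in mdx was not shared by both probe sets in every muscle.

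By muscle, 1 subunit passed the test of both mutant strains against C57BL10, and the subunits as a group ran in opposite directions in quadriceps and TA, the muscles that hold the arrays that stood apart. In quadriceps 33 of 36 differences were negative, with a median of -0.39, against 50% of all tested genes negative, with a median of -0.00. Psme4 was lower, by -1.05 ± 0.31 on the log2 scale (SE), or 2.07-fold, with an adjusted p of 0.046 in limma. It was the 1 of 36 called lower, and none was called higher, against 1.51% lower and 4.06% higher among all tested genes. Psmc2, an ATPase (-1.06 ± 0.32), and Psmb2 (-1.16 ± 0.35) each had an adjusted p of 0.057 in limma. Without the 2 arrays that stood apart, the quadriceps median was -0.20 and Psme4 differed by -0.83, with an adjusted p of 0.017 in limma, but its call was lost in 31 of 44 alternative settings.

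In TA 31 of 36 differences were positive, with a median of 0.50, and 0 passed in limma, while 12 had an unadjusted p under 0.05. Over all tested genes 52.3% were positive, with a median of 0.03, and 22.6% had an unadjusted p under 0.05 in limma. All 7 alpha ring genes (median 0.60), all 5 ATPases (0.41) and 7 of 8 lid genes (0.74) were positive. Psmc6 had the largest difference, 1.54 ± 0.45, with an adjusted p of 0.051 in limma. Among all genes 3.41% were called higher and 1% lower. The lowest and highest were Psma1 (0.07) and Psma3 (0.83) in the alpha ring, Psmb2 (-0.16) and Psmb5 (1.19) in the beta ring and Psmc1 (0.04) and Psmc6 (1.54) among the ATPases. In the rest of the complex they were Psmd1 (0.09) and Psmd4 (0.61) in the base, Psmd13 (-0.21) and Psmd11 (1.07) in the lid, Psme4 (0.16) and Psme1 (0.59) among the activators and Psmd9 (-0.84) and Psmd5 (0.38) among the chaperones, with Psmb10 at -0.28. A dimmer tested probe set of Psmd11 read 2756 to 4051 on mutant TA arrays, against 3944 and 1794 in C57BL10. Another read 735 to 1918, against 580 and 2904. Without the 2 arrays that stood apart the TA median was -0.08, so the positive differences rested on C57BL10 TA sample 2. Without C57BL10 TA sample 1, which leaves sample 2 alone, 21 subunits passed, all but Psmd9 (-1.44) higher, where 19.8% of all genes were higher and 9.43% lower. Liver markers summed to between 17055 and 40479 on the C57BL10 TA arrays, and their part in the result was not tested.

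In the other muscles 0 of 36 subunits passed in limma. In diaphragm the median difference was 0.16 and 1 gene, Psmb1 (0.75 ± 0.33), had an unadjusted p under 0.05, where 2.49% of all genes were called higher and 0.703% lower. A further probe set of Psmb1 read 4202 to 5768 on the mutant diaphragm arrays, against 3804 and 4133 in C57BL10. Among the core and ATPase genes, the extremes were Psma1 (-0.35) and Psma5 (0.38) in the alpha ring, Psmb5 (-0.12) and Psmb1 (0.75) in the beta ring and Psmc2 (-0.08) and Psmc1 (0.45) among the ATPases. Elsewhere the extremes were Psmd4 (0.13) and Psmd1 (0.29) in the base, Psmd14 (0.11) and Psmd8 (0.42) in the lid, Psme3 (-0.60) and Psme4 (0.29) among the activators and Psmd5 (-0.50) and Psmd10 (0.89) among the chaperones, with Psmb10 at 0.26. In EDL the median was -0.03 and no gene had an unadjusted p under 0.05, where 2.44% were called higher and 0.316% lower. Differences ran between Psma7 (-0.44) and Psma5 (0.15) in the alpha ring, Psmb3 (-0.30) and Psmb6 (0.30) in the beta ring and Psmc2 (-0.24) and Psmc5 (0.11) among the ATPases. The other roles ran between Psmd4 (-0.51) and Psmd1 (-0.29) in the base, Psmd13 (-0.54) and Psmd6 (0.11) in the lid, Psme4 (-0.53) and Psme3 (0.18) among the activators and Psmd9 (0.09) and Psmd5 (0.54) among the chaperones, with Psmb10 at 0.47. In gastroc the median was -0.07 and 1 gene, Psmd8 (-0.88 ± 0.36), had an unadjusted p under 0.05, where 2.25% were called higher and 0.0878% lower. By role, the bounds were Psma7 (-0.60) and Psma3 (0.20) in the alpha ring, Psmb2 (-0.61) and Psmb5 (0.38) in the beta ring and Psmc2 (-0.30) and Psmc6 (0.07) among the ATPases. Of the remaining genes the bounds were Psmd4 (-0.47) and Psmd1 (-0.17) in the base, Psmd8 (-0.88) and Psmd12 (0.04) in the lid, Psme4 (-0.56) and Psme3 (0.63) among the activators and Psmd9 (0.39) and Psmd5 (0.39) among the chaperones, with Psmb10 at 0.08. In soleus the median was -0.02 and no gene had an unadjusted p under 0.05, where 1.46% were called higher and 0.176% lower. At the ends of each role stood Psma4 (-0.16) and Psma5 (0.24) in the alpha ring, Psmb7 (-0.24) and Psmb5 (0.42) in the beta ring and Psmc2 (-0.09) and Psmc6 (0.27) among the ATPases. The other roles ended at Psmd4 (-0.25) and Psmd1 (-0.11) in the base, Psmd3 (-0.57) and Psmd7 (0.42) in the lid, Psme1 (-0.49) and Psme4 (-0.08) among the activators and Psmd9 (0.16) and Psmd10 (0.25) among the chaperones, with Psmb10 at -0.01. A joint test of whether the mutant difference varied among the 6 muscles called 0 of 36 in limma, with 2 at an unadjusted p under 0.05, against 0.667% of all genes called.

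By strain, the median difference in quadriceps was -0.33 in mdx and -0.50 in mdx5cv, and in TA 0.33 in mdx and 0.51 in mdx5cv. The medians in the other muscles lay between -0.17, for mdx5cv EDL, and 0.18, for mdx5cv diaphragm. Both strains thus had the same sign in quadriceps and TA, where they share the C57BL10 arrays.

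**Figure D3:**
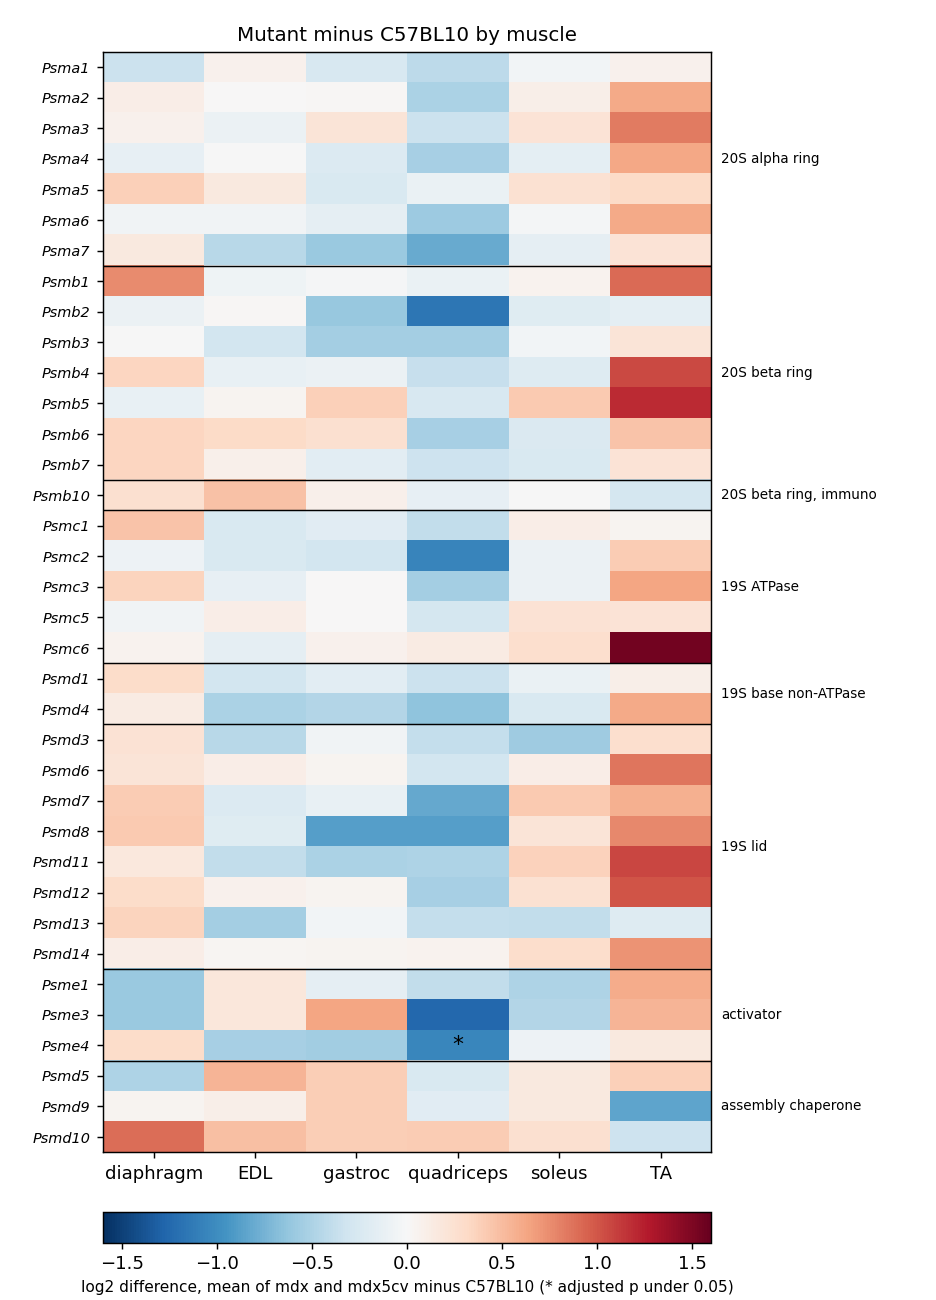
Log2 difference between the mean of mdx and mdx5cv and C57BL10 for 36 proteasome genes (vertical, by role) in 6 muscles (horizontal), as colour, with an asterisk for an adjusted p under 0.05 in limma. Quadriceps is negative in 33 of 36 genes (50% of all tested genes) and TA positive in 31 of 36 (52.3%). The asterisk marks Psme4 in quadriceps.

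Psme4 encodes PA200, a nuclear activator that caps the 20S core without needing ATP. Its signal in mdx mice was 3536 and 4519 in diaphragm, 9987 and 9909 in EDL, 8399 in gastroc, 8802 and 6891 in quadriceps, 8504 and 8805 in soleus and 7628 and 9331 in TA. In mdx5cv mice it was 4665 and 4167 in diaphragm, 6833 and 8135 in EDL, 8276 in gastroc, 8994 and 4786 in quadriceps, 4600 and 5302 in soleus and 7856 and 7002 in TA. In C57BL10 mice it was 3140 and 3773 in diaphragm, 10563 and 14555 in EDL, 13285 and 11414 in gastroc, 16644 and 13213 in quadriceps, 6086 and 7844 in soleus and 11965 and 4205 in TA. The C57BL10 arrays of EDL, gastroc and quadriceps all lay above those of the mutant strains, as did C57BL10 TA sample 1 in TA, and the diaphragm and soleus arrays overlapped.

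Averaged over EDL, gastroc, quadriceps and TA, a comparison chosen after these values had been seen, Psme4 was lower in the mutant strains, by -0.50 ± 0.16 (SE) on the log2 scale, or 1.41-fold, with an adjusted p of 0.04 in limma. It was the 1 of 36 subunits called lower, and none was called higher, against 3.95% lower and 10.3% higher among all tested genes. The 14 mutant arrays ranged between 4786 and 9987, with a median of 8206, and the 8 C57BL10 arrays between 4205 and 16644, with a median of 12589. Without the 2 arrays that stood apart, the 13 mutant arrays (6833 to 9987) all lay below the 7 C57BL10 arrays (10563 to 16644), as they did for 0.474% of all tested genes. The call was lost in 16 of 44 alternative settings. Over all 6 muscles, Psme4 differed by -0.17 in mdx and by -0.42 ± 0.15 in mdx5cv (adjusted p of 0.064 in limma), and without those arrays by -0.29 (adjusted p 0.038, limma) and -0.47 (0.0018). Markers of regenerating muscle were called higher in 9 of 9 genes in both strains over the 6 muscles. On all muscles they summed to between 29544 and 89798 on mutant arrays, against 8259 to 14850 on C57BL10 arrays. In the fast limb average 8 of 9 of them, 12 of 12 macrophage and leukocyte and 8 of 9 fibroblast markers were higher. There 2 of 3 erythroid markers were lower, 3 of 7 slow fibre markers were higher and 2 lower, and 0 of 7 endothelium markers were called. Their part in the result was not tested.

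**Figure D4:**
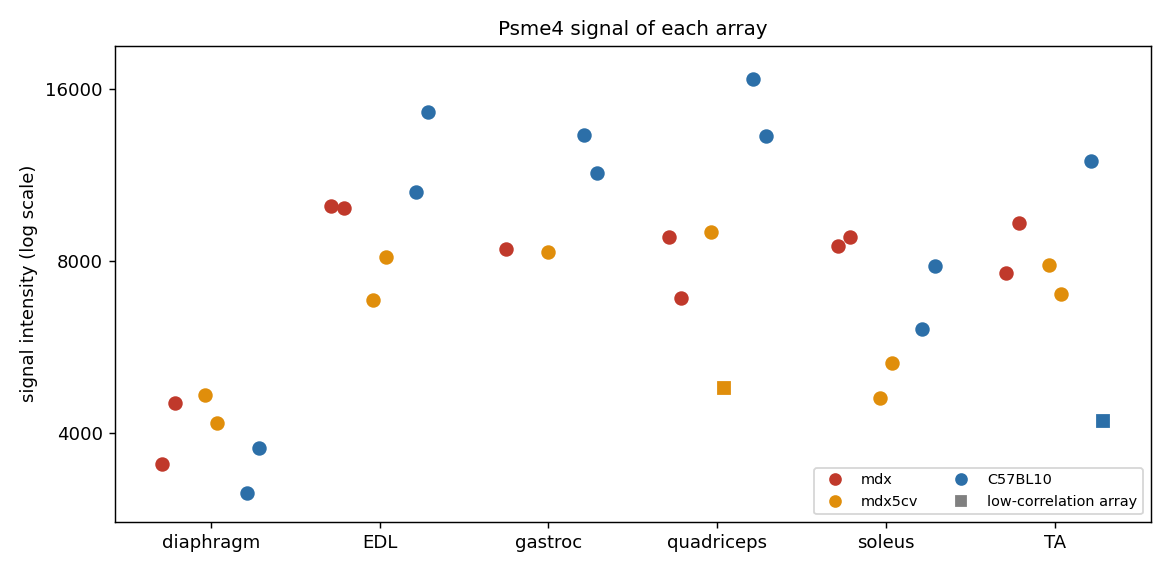
Signal of Psme4 on each array (logarithmic axis) by muscle and strain, with 1 point per array and squares for the 2 low-correlation arrays. The C57BL10 arrays of EDL, gastroc and quadriceps lie between 10563 and 16644, above the mutant arrays of those muscles, and the 6 diaphragm arrays lie between 3140 and 4665.

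The 2 mutant strains were then compared with each other. Of 36 subunits 0 passed in limma, and 1, Psma1 (0.32 ± 0.15), had an unadjusted p under 0.05, against 0.369% of all genes called higher and 0.211% lower in mdx5cv than in mdx. The median difference was -0.05, and the lowest was that of Psme3 (-0.47 ± 0.38), the nuclear activator PA28 gamma. The 95% interval stayed within 1 log2 unit of 0 for 35 of 36. The lowest and highest were Psma4 (-0.28) and Psma1 (0.32) in the alpha ring, Psmb7 (-0.24) and Psmb6 (0.15) in the beta ring and Psmc6 (-0.32) and Psmc2 (0.23) among the ATPases. In the rest of the complex they were Psmd4 (-0.17) and Psmd1 (0.17) in the base, Psmd11 (-0.41) and Psmd12 (0.12) in the lid, Psme3 (-0.47) and Psme1 (-0.10) among the activators and Psmd5 (-0.21) and Psmd10 (0.32) among the chaperones, with Psmb10 at 0.00. A dimmer tested probe set of Psmd11 read higher in mdx5cv than in mdx in TA (4051 and 4003, against 2756 and 2864). In EDL that probe set read lower (2903 and 3438, against 3388 and 3746). In EDL alone, where 1 mdx sample has conflicting labels, 0 of 36 passed in limma and 2 had an unadjusted p under 0.05, against 0.211% of all genes called higher and 0% lower. There the median was -0.31, and the interval stayed within 1 log2 unit for 12 of 36. Slow fibre markers were called higher in 6 of 7 genes there (median 3.41) and summed to between 172548 and 201842 in mdx5cv EDL, against 23640 to 23717 in mdx EDL, and their part in the result was not tested. Among the core and ATPase genes, the extremes were Psma2 (-0.47) and Psma5 (-0.02) in the alpha ring, Psmb1 (-0.46) and Psmb6 (0.26) in the beta ring and Psmc6 (-0.65) and Psmc2 (-0.20) among the ATPases. Elsewhere the extremes were Psmd4 (-0.21) and Psmd1 (0.04) in the base, Psmd14 (-0.70) and Psmd3 (1.22) in the lid, Psme1 (-0.48) and Psme3 (-0.27) among the activators and Psmd5 (-0.33) and Psmd9 (0.49) among the chaperones, with Psmb10 at 0.19.

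The diaphragm, set against the mean of the 5 limb muscles in each strain, held most of the proteasome genes that passed the test. In mdx mice 4 of 36 subunits were lower and none was higher (11.1% of the subunits, against 8.13% lower and 5.69% higher among all tested genes). In mdx5cv mice 0 of 36 passed in limma, and 4 had an unadjusted p under 0.05, against 1.65% lower and 3.3% higher among all genes. In C57BL10 mice 7 of 36 were lower and none was higher (19.4%, against 8.84% lower and 7.76% higher). The median difference was -0.43 in mdx, -0.28 in mdx5cv and -0.51 in C57BL10, beside -0.15, -0.05 and -0.14 over all tested genes. By strain, 29 of 36 were negative in mdx, 29 in mdx5cv and 32 in C57BL10, against 60.5%, 54.1% and 60.2% of all tested genes. The difference was negative in all 3 strains for 25 of 36 genes and positive in all 3 for Psmb10 and Psme1.

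In the mdx diaphragm the lower genes were the lid subunits Psmd12 (-1.19 ± 0.37, adjusted p 0.035, limma) and Psmd6 (-1.07 ± 0.27, 0.0091), the activator Psme4 (-1.11 ± 0.28, 0.0089) and the alpha ring subunit Psma1 (-0.92 ± 0.26, 0.019). In the C57BL10 diaphragm Psme4 had the largest difference, -1.57 ± 0.28, or 2.97-fold, with an adjusted p of 0.00019 in limma. The beta ring subunits Psmb7 (-1.05 ± 0.24) and Psmb1 (-1.01 ± 0.30), the ATPase Psmc1 (-0.99 ± 0.24), the lid subunits Psmd8 (-1.02 ± 0.28) and Psmd6 (-0.91 ± 0.27) and the scaffold subunit Psmd1 (-0.80 ± 0.25) were also lower, with adjusted p between 0.0031 and 0.027 in limma. Psme4 and Psmd6 were lower in both strains. Psmc3, an ATPase, differed by -0.76 ± 0.29 with an adjusted p of 0.08 in limma, while its other 2 probe sets passed, at -1.21 and -1.05. A further probe set of Psmb1 was tested and did not pass. It read 3804 and 4133 in C57BL10 diaphragm, against 4618 to 6762 in limb, save 1981 on TA sample 2. In mdx5cv Psmd6 differed by -0.65 ± 0.27 and Psme4 by -0.63 ± 0.28, with adjusted p of 0.21 and 0.25 in limma. Differences ran between Psma6 (-0.60) and Psma4 (0.07) in the alpha ring, Psmb5 (-0.57) and Psmb3 (-0.13) in the beta ring and Psmc5 (-0.42) and Psmc2 (-0.20) among the ATPases. The other roles ran between Psmd1 (-0.17) and Psmd4 (-0.09) in the base, Psmd6 (-0.65) and Psmd13 (0.34) in the lid, Psme4 (-0.63) and Psme1 (0.56) among the activators and Psmd5 (-0.31) and Psmd9 (0.08) among the chaperones, with Psmb10 at 0.63.

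Psmb7, the trypsin-like subunit, had a larger difference in the C57BL10 diaphragm (-1.05) than most subunits (median -0.51). It was not called in mdx or mdx5cv. Its signals are given by array. In mdx mice they were 5488 and 9603 in diaphragm, 12921 and 12271 in EDL, 10511 in gastroc, 10948 and 14247 in quadriceps, 11776 and 13541 in soleus and 10431 and 11493 in TA. In mdx5cv mice they were 6400 and 7144 in diaphragm, 10864 and 10232 in EDL, 11064 in gastroc, 12847 and 7249 in quadriceps, 8189 and 5564 in soleus and 12548 and 11373 in TA. In C57BL10 mice they were 5082 and 6007 in diaphragm, 11297 and 10508 in EDL, 12813 and 11440 in gastroc, 13747 and 13800 in quadriceps, 10126 and 11684 in soleus and 12687 and 7578 in TA. Both diaphragm arrays lay below every limb array in mdx and C57BL10, while in mdx5cv soleus sample 2 was lower than both.

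Psmd8, a lid subunit, was called lower in the C57BL10 diaphragm, while the test of its mutant difference between diaphragm and limb gave 0.61 ± 0.34 with an adjusted p of 0.84 in limma. In mdx mice its signals were 2834 and 4342 in diaphragm, 3615 and 5187 in EDL, 3916 in gastroc, 4436 and 4802 in quadriceps, 4090 and 4938 in soleus and 5037 and 6670 in TA. In mdx5cv mice they were 2919 and 4087 in diaphragm, 3308 and 5710 in EDL, 4700 in gastroc, 3668 and 2888 in quadriceps, 4840 and 5104 in soleus and 7036 and 6077 in TA. In C57BL10 mice they were 2279 and 2977 in diaphragm, 5279 and 4662 in EDL, 8330 and 7495 in gastroc, 6226 and 8154 in quadriceps, 4200 and 4002 in soleus and 5832 and 2242 in TA. In C57BL10 the diaphragm arrays lay below all limb arrays save TA sample 2, and in both mutant strains they overlapped with the limb.

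Both diaphragm arrays lay below all limb arrays for 9 of 36 subunits in mdx (12% of all genes), 1 in mdx5cv (4.97%) and 5 in C57BL10 (10.1%). They lay above all limb arrays for Psmb10 in mdx (7.59% of all genes) and in mdx5cv (7.18%), and for Psme1 in C57BL10 (9.17%). Without the 2 arrays that stood apart, 4 lay below in mdx5cv (7.59% of all genes) and 21 in C57BL10 (20.6%), while Psmb10 and Psme1 lay above in C57BL10 (12.1%). In the fit without those arrays 12 subunits were called in mdx, all but Psmb10 lower, where 14% of all genes were lower and 7.47% higher. That fit called 2 in mdx5cv, both lower, where 3.58% were lower and 4.46% higher. It called 18 in C57BL10, all but Psme1 lower, where 15.5% were lower and 9.91% higher. Without C57BL10 diaphragm sample 1, 1 was called in C57BL10, and without mdx diaphragm sample 2, 1 was called in mdx.

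Markers of other tissues moved with the diaphragm. The 6 liver markers summed to between 226166 and 443216 in mdx diaphragm, 134880 and 148908 in mdx5cv diaphragm and 230724 and 236192 in C57BL10 diaphragm, against 379 to 40479 on limb arrays, and all 5 tested ones were called higher in each strain. Markers of fast fibres summed to between 221787 and 307751 on diaphragm arrays, against 235960 to 1375468 on limb arrays, which overlap through the soleus. Of 7 slow fibre markers, 6 were called higher in the diaphragm of mdx, 3 in mdx5cv and 5 in C57BL10. Of 12 tested macrophage and leukocyte markers, 3 were called higher in mdx, 0 in mdx5cv and 5 in C57BL10, where they summed to between 24037 and 24184 in diaphragm, against 10425 to 14443 in limb. Their part in the result was not tested. A test of whether the mutant difference was unlike in diaphragm and limb called 0 of 36 subunits in limma, none at an unadjusted p under 0.05, against 0.0703% of all genes called higher and 0.158% lower. The median of that difference was 0.23, with 0.70 ± 0.34 for Psme4. By role, the bounds were Psma1 (-0.24) and Psma7 (0.51) in the alpha ring, Psmb5 (-0.47) and Psmb1 (0.59) in the beta ring and Psmc6 (-0.31) and Psmc1 (0.59) among the ATPases. Of the remaining genes the bounds were Psmd4 (0.39) and Psmd1 (0.45) in the base, Psmd14 (-0.12) and Psmd13 (0.67) in the lid, Psme1 (-0.54) and Psme4 (0.70) among the activators and Psmd5 (-0.74) and Psmd10 (0.65) among the chaperones, with Psmb10 at 0.23.

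**Figure D5:**
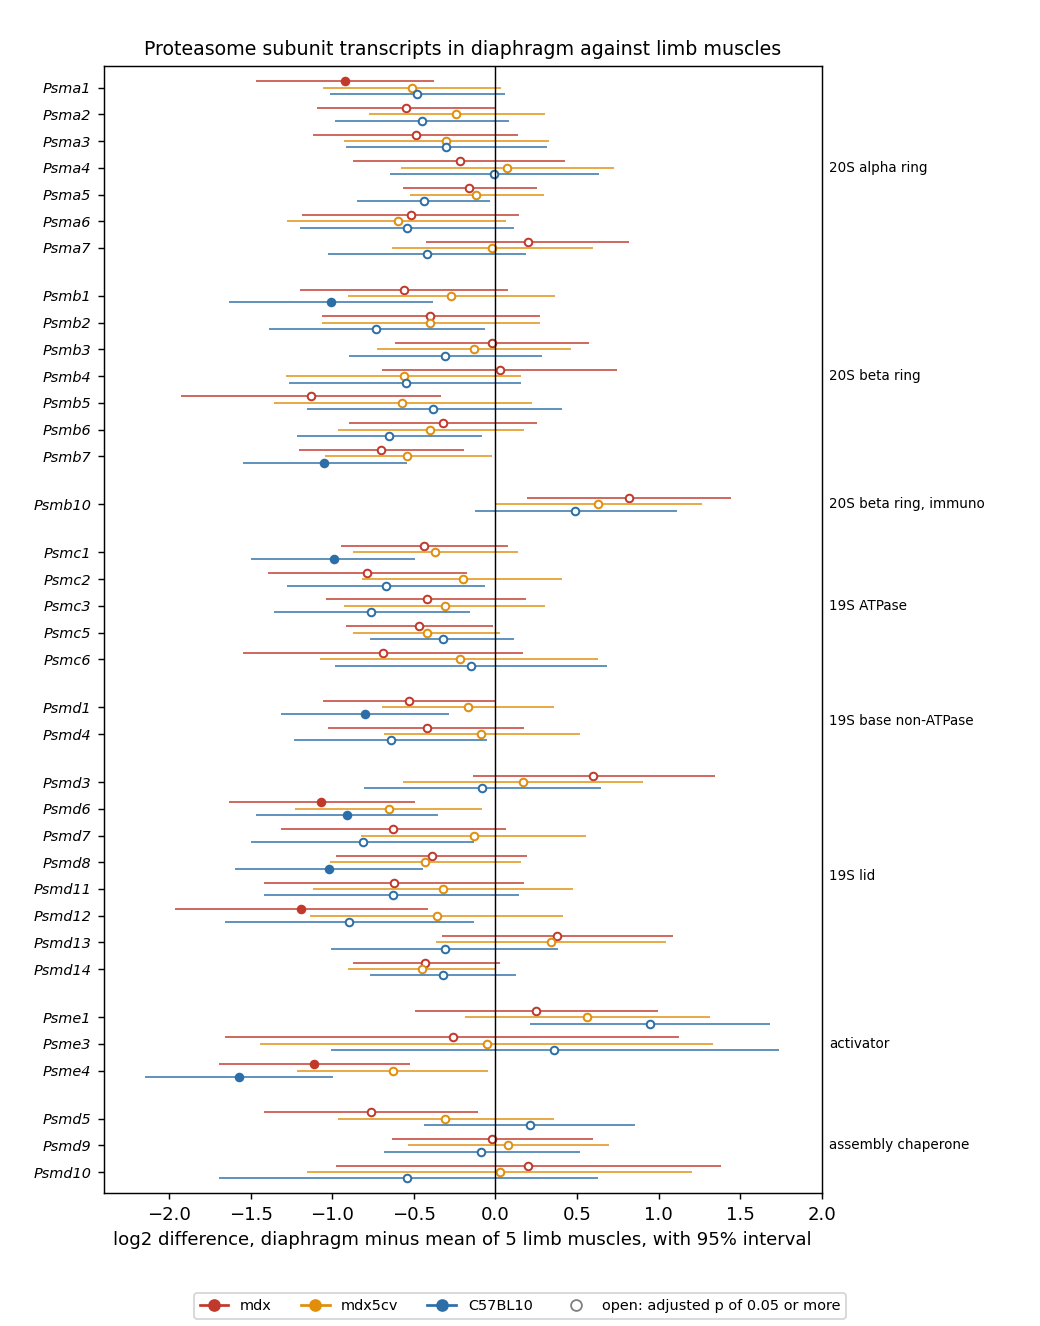
Log2 difference between diaphragm and the mean of 5 limb muscles for 36 proteasome genes, in mdx, mdx5cv and C57BL10, with filled points for an adjusted p under 0.05 in limma. Filled points are 4 in mdx, 0 in mdx5cv and 7 in C57BL10, all below 0, and Psmb10 and Psme1 lie above 0 in all 3 strains.

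Among C57BL10 limb muscles, the slow soleus was set against the 4 fast muscles. Of 36 subunits 0 passed in limma, and 1, Psme4 (-0.70 ± 0.28, adjusted p 0.28), had an unadjusted p under 0.05, against 1.58% of all genes called higher and 1.23% lower. The median difference was 0.03. At the ends of each role stood Psma1 (-0.20) and Psma4 (0.13) in the alpha ring, Psmb5 (-0.28) and Psmb4 (0.34) in the beta ring and Psmc5 (-0.22) and Psmc3 (0.08) among the ATPases. The other roles ended at Psmd1 (0.00) and Psmd4 (0.30) in the base, Psmd8 (-0.46) and Psmd12 (0.40) in the lid, Psme4 (-0.70) and Psme1 (0.66) among the activators and Psmd9 (-0.14) and Psmd5 (0.44) among the chaperones, with Psmb10 at 0.37. Psme1, the interferon-induced activator PA28 alpha, differed by 0.66 ± 0.36 and Psme3 by 0.48. Without C57BL10 TA sample 1, Psme1 differed by 0.93, and without TA sample 2, Psme4 differed by -0.89.

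Psme3 varied more between arrays of a group than any other subunit, with an SD of 1.00 on the log2 scale. In mdx mice its signal was 2384 and 1439 in diaphragm, 4002 and 1815 in EDL, 2903 in gastroc, 3011 and 1192 in quadriceps, 3697 and 1926 in soleus and 1720 and 1104 in TA. In mdx5cv mice it was 1746 and 1313 in diaphragm, 3566 and 1399 in EDL, 1429 in gastroc, 3090 and 490 in quadriceps, 2720 and 617 in soleus and 2390 and 1478 in TA. In C57BL10 mice it was 2641 and 2424 in diaphragm, 3613 and 1290 in EDL, 529 and 3278 in gastroc, 3992 and 3335 in quadriceps, 3780 and 1752 in soleus and 1961 and 625 in TA. Sample 1 was above sample 2 in 15 of the 16 groups with 2 arrays, C57BL10 gastroc being the exception. By scanning period, the median was 3613 on the 5 arrays of the first, 3011 on the 9 of the second and 1399 on the 15 of the third, and C57BL10 gastroc sample 1 is of the third and sample 2 of the first. In diaphragm and quadriceps every mutant array lay below both C57BL10 arrays. All 5 arrays of the first period are C57BL10 and all 9 of the second are of the mutant strains. Strain and period therefore cannot be told apart between them. The fit with scanning period as a block covered all tested genes. The part of the period in these Psme3 values was not tested by itself.

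Psme1 had the opposite sign to most subunits in the diaphragm. Its signal in mdx mice was 3075 and 2386 in diaphragm, 2619 and 2265 in EDL, 2318 in gastroc, 2299 and 2670 in quadriceps, 2264 and 2914 in soleus and 1407 and 2089 in TA. In mdx5cv mice it was 2272 and 4035 in diaphragm, 1744 and 1750 in EDL, 2571 in gastroc, 3028 and 1445 in quadriceps, 2279 and 1844 in soleus and 1856 and 1887 in TA. In C57BL10 mice it was 4694 and 3981 in diaphragm, 2360 and 1397 in EDL, 2559 and 2878 in gastroc, 3163 and 2798 in quadriceps, 3388 and 3070 in soleus and 2490 and 568 in TA. The difference between diaphragm and limb was 0.25 in mdx, 0.56 in mdx5cv and 0.95 ± 0.35 in C57BL10, where the adjusted p was 0.07 in limma and both diaphragm arrays were above all limb arrays. Psme1 was called higher there with array weights (adjusted p 0.00067, limma), where 13.5% of all genes were higher. It was not called with scanning period or replicate as a block, nor without either C57BL10 diaphragm sample. Without the 2 arrays that stood apart it differed by 0.74. Without C57BL10 TA sample 1 it differed by 1.16, and without sample 2 by 0.74.

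Psmb10 encodes the interferon-induced subunit that takes the place of Psmb7 in the immunoproteasome, the form that makes peptides for class I molecules. It differed between diaphragm and limb by 0.82 ± 0.30 in mdx, 0.63 ± 0.30 in mdx5cv and 0.49 ± 0.30 in C57BL10, with adjusted p of 0.072, 0.28 and 0.3 in limma. In mdx it was called higher under 7 alternatives. Those tried were 13 other settings and 32 fits that each left out 1 sample, not all of which hold this comparison. Scanning period as a block was among the 7 (adjusted p 0.049, limma), where 7.32% of all genes were higher. Without the 2 arrays that stood apart it differed by 0.82 in mdx. With array weights it was called in all 3 strains (0.034, 0.038 and 0.033), where 6.01%, 7.38% and 13.5% of all genes were higher. Its signal had a median of 1848 in mdx (867 to 3121), 1850 in mdx5cv (860 to 2738) and 1567 in C57BL10 (1115 to 3060), and the strain difference was 0.06 in both mutant strains. The other induced subunits are no members here. Psmb8 was higher in mdx, by 0.60 ± 0.16 with an adjusted p of 0.009 in limma, and differed by 0.45 ± 0.16 in mdx5cv (0.052). Its signals were 877 to 2839 in mdx, 962 to 2642 in mdx5cv and 560 to 1891 in C57BL10, and overlapped. Between diaphragm and limb Psmb8 was higher in C57BL10 (0.83 ± 0.28, adjusted p 0.047, limma) and differed by 0.66 in mdx (0.14) and 0.90 in mdx5cv (0.078). Psmb9 passed in no comparison and differed by 0.14 ± 0.33 in mdx and 0.30 ± 0.33 in mdx5cv, and by 1.26 ± 0.61 between diaphragm and limb in C57BL10. Markers of macrophages and other leukocytes, which express these subunits, were called higher in 12 of 12 tested genes in both strains and summed to between 21068 and 66849 on mutant arrays, against 10425 to 24184 on C57BL10 arrays. Of 4 tested markers of T and B lymphocytes, counted apart, 0 were higher and 1 was lower in mdx, and 0 were called in mdx5cv. Their part in the result was not tested.

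Other genes of protein breakdown were counted by lists. Among all tested genes 10.6% were higher and 5.48% lower in mdx, and 11.1% were higher and 4.5% lower in mdx5cv. A list with 1 gene called is to be read beside these shares. The list of cathepsins and calpains, lysosomal and calcium-dependent proteases, also holds legumain (Lgmn), which is neither. Of its 13 tested genes, 9 were higher in mdx and 8 in mdx5cv, with Ctss at 3.09 and 2.87 and Lgmn at 1.68 and 1.98. Capn3 was lower in mdx5cv (-0.39). Of 9 immunoproteasome and peptide loading genes, 5 were higher in mdx, among them B2m (0.66) and Pdia3 (0.67), and 2 in mdx5cv. Of 17 ubiquitin, E1 and E2 genes, 1 was lower in each strain, Ube2b (-0.62 in mdx and -0.52 in mdx5cv). Of 19 proteasome cofactors, assembly and shuttle factors, 1 was lower in each strain, Ufd1 (-0.51 and -0.53). Of 10 ubiquitin ligases and cullin partners, Skp1 was lower in mdx (-1.18 ± 0.38). Of 10 deubiquitinating enzymes, Usp15 was lower in mdx (-0.73) and Usp2 in mdx5cv (-0.63). Of 9 genes of the COP9 signalosome, a complex built like the lid, 0 passed in either strain in limma.

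The same lists were counted between diaphragm and limb, where 8.13% of all tested genes were lower in mdx, 1.65% in mdx5cv and 8.84% in C57BL10. The COP9 signalosome had 3 of 9 genes lower in mdx, 0 in mdx5cv and 4 in C57BL10, with Cops5 at -0.91 in mdx and -1.13 in C57BL10. The ubiquitin, E1 and E2 genes had 5 of 17 lower in mdx, 1 in mdx5cv and 5 in C57BL10, with Ube2e1 at -1.68, -1.28 and -1.54. The cofactors had 4 of 19 lower in mdx, 0 in mdx5cv and 4 in C57BL10, with Ecpas, a 26S-binding scaffold, at -1.26 in mdx and -1.49 in C57BL10. Ubiquitin ligases and cullin partners had 3 of 10 lower in mdx, 0 in mdx5cv and 4 in C57BL10, and deubiquitinating enzymes 2, 0 and 2 of 10. The list of cathepsins, calpains and legumain had 1 of 13 higher and 2 lower in mdx, 1 higher and 0 lower in mdx5cv, and 3 higher and 1 lower in C57BL10. The immunoproteasome and peptide loading genes had 3 of 9 higher in mdx, 1 in mdx5cv and 5 in C57BL10, against 5.69%, 3.3% and 7.76% of all genes higher, with B2m at 1.14 in mdx5cv and 1.90 in C57BL10. Nfe2l1, the factor that induces proteasome genes when the protease is inhibited, differed by -0.26 ± 0.16 in mdx and -0.33 ± 0.16 in mdx5cv, with adjusted p of 0.3 and 0.2 in limma.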

How the data were processed

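The deposited value table holds 1 signal intensity per probe set and array, made by the authors from MG_U74Av2 scans; which signal algorithm they used is not stated. From the values, each array had been scaled to the same trimmed mean (2% trimmed). Experiment files gave scanning days for 30 arrays, in 4 periods. All steps from here on were computed for this text. Signals were floored at the 20th percentile of the table (118) and log2-transformed, and probe sets with a mean log2 of at least 8.45 (the 40th percentile) were kept, 7453 in all. limma 3.58.1 (R 4.3.3) was fitted with 18 group means, an intensity trend and Benjamini-Hochberg adjustment over all tested probe sets, two-sided, with a threshold of 0.05; 16 residual degrees of freedom remained. A gene was represented by its brightest probe set. Tables and figures used Python 3.11.15, pandas 2.3.3 and matplotlib 3.10.9. The fit was tested on simulated data. Of 12488 probe sets, 10855 had 1 symbol, 396 several and 1237 none. Probe sets of Psma3, Psmb4, Psmb7, Psmc3, Psmd12 and Psmb5 carry suffixes that mark possible hybridisation with related transcripts. The number of arrays limits the precision.

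The members and gene lists were chosen with earlier results of these data known. Values by array are given for the 5 subunits with the largest mean difference of the mutant strains and the 3 largest in the C57BL10 diaphragm and soleus comparisons. Genes past the threshold are named, up to 12 a direction, and otherwise the lowest and highest of each role. Sample numbers were not used to pair the samples. Of 120 correlations of deviations between same-numbered samples, 47 were above 0.1 and 41 below 0, with a median of 0.05 and a highest of 0.62. Most dated sample 1 arrays were of the first or second scanning period, and most dated sample 2 arrays of the third. The spread between samples of a group therefore includes any difference between periods. Alternatives are given in the closing section.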

Additional observations from a re-analysis of the deposited data

How the results depend on the processing

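Counts are of 36 subunits past an adjusted p of 0.05 in limma, over 13 other settings and 32 fits that each left out 1 sample; no difference that passed the test changed sign, though differences near 0 that did not pass and the TA median did. Settings for the fast limb average and for the mdx and mdx5cv diaphragm were chosen after seeing the data. Without the 2 arrays of low correlation, 2 were called in mdx, 1 in mdx5cv, 1 in the mutant diaphragm, 3 in the fast limb average, 1 in C57BL10 soleus, and, both directions counted, 12, 2 and 18 in the diaphragm of mdx, mdx5cv and C57BL10. There 12.9% of all genes were higher and 9.27% lower in mdx, 13.4% and 7.41% in mdx5cv, and 4.64% and 1.88% in the mutant diaphragm. In the fast limb average the shares were 11.6% and 7.15%, and in C57BL10 soleus 2.41% and 2.25%. Array weights gave 1 in mdx, 1 in mdx5cv, 1 in the mutant diaphragm, 2 in quadriceps, 1 in soleus, 1 in the test among 6 muscles, and 8, 4 and 20 in the 3 diaphragm comparisons. Scanning period as a block gave 1 in mdx5cv, 2 in quadriceps, 2 in the fast limb average, 1 in soleus, 7 in mdx diaphragm and 1 in mdx5cv diaphragm. With that block 7.5% of all genes were higher and 3.86% lower in mdx5cv, and 4.76% and 3.83% in quadriceps. The shares were 8.52% and 5.9% in the fast limb average, 7.32% and 12.3% in mdx diaphragm, and 4.23% and 2.93% in mdx5cv diaphragm. Quantile normalization gave 1 in mdx5cv, 0 in quadriceps, 1 in TA and 1 in mdx5cv diaphragm. There 9.26% of all genes were higher and 5.02% lower in mdx5cv, 10.3% and 2.11% in TA, and 3.21% and 2.39% in mdx5cv diaphragm. No filter on low values gave 0 in quadriceps and 0 in the fast limb average, as did no intensity trend. All 36 columns gave 1 in mdx5cv, 1 in TA and 2 in the fast limb average. The third scanning period alone gave 1 in mdx5cv, a filter at the median 1 in TA, and the mean of a gene's probe sets 3 in quadriceps. In that period alone 2.92% of all genes were higher and 0.931% lower in mdx5cv. The replicate block gave 3 in quadriceps and 1 in TA and moved no other count by over 1.5 times. The TA median was 0.00 with the period block and -0.08 without the low-correlation arrays. Leaving out 1 sample gave 0 to 4 in mdx, 0 to 2 in mdx5cv, 0 to 4 in quadriceps, 0 to 21 in TA (median -0.08 to 1.18), 0 to 4 in the fast limb average, 0 to 1 in soleus, 0 to 13 among the 6 muscles, and 1 to 8, 0 to 1 and 1 to 15 in the diaphragm of mdx, mdx5cv and C57BL10. Of these, the 21 and 13 came without C57BL10 TA sample 1, which leaves only TA sample 2. The call of Psme4 in quadriceps was lost in 31 of 44 settings and that in the fast limb average in 16. Other causes were not tested.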
